A study of Mus musculus with 12 samples.

Results

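Strong Y541S-only PR regions are 898 places in the mouse genome where the progesterone receptor (PR) was mapped with a strong peak in both mutant mammary gland libraries and with no peak in either wild-type library. They were chosen by the readout itself. Overlapping peaks (1 bp or more) of the 4 PR peak lists were merged into 192601 regions, and an autosomal region became a member when its deposited −log10 p was at least 10 in both Y541S lists and neither WT list held a peak there. Of the 29250 autosomal regions that were strong in both Y541S lists, 3.07% were members, 24869 had a peak in both WT lists (called strong shared regions here) and 3483 had a peak in 1 WT list. The other regions with a peak in both Y541S lists and none in WT, 12115 in number, were below a −log10 p of 10 in at least 1 Y541S library and are called weaker Y541S-only regions. The 898 are a count made by the rule, so their presence in Y541S and absence in WT are not findings, and the PR values below describe them without a test.

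PR and the estrogen receptor ERα, encoded by Pgr and Esr1, are ligand-activated transcription factors. Hormone-bound PR sits on DNA as a dimer at a palindromic element whose half-site resembles that of the glucocorticoid receptor, and often at enhancers far from gene starts. In the mammary gland Pgr is itself induced by ERα, and both receptors act mainly in hormone-sensing luminal cells, which signal to their neighbours during side branching. Y541S changes the ligand-binding domain of mouse ERα and is the counterpart of a human breast cancer mutation that lets ERα act with little or no estrogen.

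Chromatin was taken from entire mammary glands of mice whose Esr1 was wild type (WT) or carried Y541S. Mice of both genotypes were kept to 8 weeks and given implants of estradiol and progesterone, with glands collected 4 days later, so both groups were hormone-treated. Each genotype had 2 biological replicates for PR and 2 for ERα, and the number of animals behind a replicate is not stated. The 4 D542G samples were not analysed here. A gland is made of epithelial, fat, stromal, vascular and immune cells, although the series title speaks of luminal cells. In such bulk chromatin, more cells with an occupied region and more occupancy per cell cannot be told apart. Strong shared regions lay within 50 kb of 14 of 14 genes of a hormone-sensing luminal list, 16 of 20 basal genes, 16 of 17 adipocyte genes, 7 of 14 fibroblast genes, 9 of 14 endothelial genes and 12 of 14 immune genes, beside 75.7% of all autosomal coding genes, so these counts do not tell which cells were sampled.

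The libraries differed in size and depth. The PR lists held 82982 and 93491 peaks in WT and 113695 and 101382 in Y541S. Background coverage, the lowest expected depth computed back from each list, was 2.68 for replicate 1 and 0.927 for replicate 2 of WT PR, and 2.45 and 1.35 for those of Y541S PR. The median −log10 p of the PR peaks was 5.003 and 5.64 in the WT lists and 9.82 and 6.71 in the Y541S lists. The ERα lists held 72566 and 64488 peaks in WT and 106926 and 105612 in Y541S. A list with more peaks can cover more of the genome, and the part of this in the results below was not tested except where a value is given.

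Few members lay at gene starts: 4.67% were within 1 kb of an annotated start site, beside 19.2% of strong shared regions (autosomes other than 18). Of 31396 promoter windows in RefSeq (GRCm38.p6, 250 bases before to 50 after each annotated start, on the autosomes other than 18), members overlapped 34, or 0.108%. Strong shared regions, a far larger class of 24869, overlapped 5873, or 18.7%, so these shares reflect the sizes of the classes as well as their place. The 34 windows belonged to 28 members and 29 genes, of which 22 were coding, so several windows shared a member. In 9 coding genes the mean of the 2 PR summits fell in the part upstream of the gene. Of these, 5 are printed below, picked after their values were seen to show promoters with an ERα peak in all, some or none of the ERα libraries. Each runs 5′ to 3′ on the gene's strand and stops at the gene's annotated edge, and the capitals mark up to 21 bases centred on the mean summit.
Slpi, chr2:164356508-164356757, minus strand: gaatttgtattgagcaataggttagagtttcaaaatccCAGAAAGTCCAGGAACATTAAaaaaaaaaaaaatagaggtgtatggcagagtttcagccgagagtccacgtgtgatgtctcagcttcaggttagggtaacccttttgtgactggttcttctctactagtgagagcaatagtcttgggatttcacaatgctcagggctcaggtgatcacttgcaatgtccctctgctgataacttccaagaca
Capsl, chr15:9435778-9436015, plus strand: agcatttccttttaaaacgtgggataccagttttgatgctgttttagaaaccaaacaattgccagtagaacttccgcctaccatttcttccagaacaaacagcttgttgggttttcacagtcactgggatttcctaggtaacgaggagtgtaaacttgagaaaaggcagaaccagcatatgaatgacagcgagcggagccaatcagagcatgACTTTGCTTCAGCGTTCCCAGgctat
Osbpl5, chr7:143757009-143757258, minus strand: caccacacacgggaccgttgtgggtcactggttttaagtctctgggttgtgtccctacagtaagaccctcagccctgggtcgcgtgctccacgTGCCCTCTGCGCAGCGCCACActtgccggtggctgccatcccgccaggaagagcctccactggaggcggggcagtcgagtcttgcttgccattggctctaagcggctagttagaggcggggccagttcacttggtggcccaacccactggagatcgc
Polq, chr16:37011536-37011740, plus strand: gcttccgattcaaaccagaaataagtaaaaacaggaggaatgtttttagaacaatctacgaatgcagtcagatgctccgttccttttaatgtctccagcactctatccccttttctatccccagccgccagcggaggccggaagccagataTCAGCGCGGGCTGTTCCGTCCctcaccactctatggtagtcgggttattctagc
Adgrf1, chr17:43270097-43270282, plus strand: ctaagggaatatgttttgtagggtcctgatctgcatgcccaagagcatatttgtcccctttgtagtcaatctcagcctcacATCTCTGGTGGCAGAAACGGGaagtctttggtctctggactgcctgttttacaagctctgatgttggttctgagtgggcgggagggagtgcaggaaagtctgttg

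Slpi encodes a secreted protease inhibitor of epithelia. Its PR summit lay 202 bases upstream of the start, with fold enrichments of 5.78 and 7.08 in Y541S replicates 1 and 2. Fold enrichment is the value deposited by the authors, recovered here as summit coverage plus 1 over local expectation plus 1. ERα peaks overlapped it in WT replicate 1 and in both Y541S libraries. Osbpl5, a lipid transfer protein gene, had its summit 147 bases upstream with folds of 5.50 and 8.52, and all 4 ERα libraries had a peak there. Polq encodes DNA polymerase theta, which acts in end joining of DNA breaks. Its summit lay 89 bases upstream with folds of 5.51 and 6.11, and it too had an ERα peak in all 4 libraries. Capsl, a calcyphosine-like gene, had its summit 28 bases upstream with folds of 7.25 and 8.95 and an ERα peak in WT replicate 1 alone. Adgrf1, an adhesion G protein-coupled receptor gene, had its summit 159 bases upstream with folds of 5.53 and 6.15 and no ERα peak in any library. The 5 promoters had PR folds between 5.50 and 8.95 and unlike ERα patterns.

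Short motifs, 12 in number, were looked up on both strands of the whole 300-base windows. The core of the progesterone receptor element, ACANNNTGT, was in 6.90% of all 31396 windows and in 3 of the 34 overlapped by members. One of the 3 was the Capsl window, in which ACAGCTTGT began 152 bases before the start and the half-site AGAACA 159 bases before it, both over 100 bases from the capitals marking the summit. The half-site AGAACA, which can overlap the core by its last 3 letters, was in 19.0% of all windows and in 10 of the 34, among them Polq at 203 bases before the start. The full palindromic estrogen receptor element was in 0.0733% of windows and in none of the 34. A higher share in the 34 was not particular to receptor motifs. The CCAAT box was in 37.3% of all windows and in 20 of the 34, and the TEAD site in 14.6% and in 8. Others were less frequent in the 34, such as the GATA site, in 11.2% of all windows and in 1 of the 34. Windows that share a member or a gene are not independent, and no share was tested. A match is a description of the letters and not of a bound site.

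The members were strong peaks of the Y541S lists but not their strongest. In Y541S replicate 1 their fold enrichment ran from 2.82 through a median of 7.08 to 21.3, and in replicate 2 from 2.88 through 6.82 to 18.5. Their −log10 p ran from 10.1 through 18.6 to 84.8 in replicate 1 and from 10.005 through 12.9 to 78.6 in replicate 2. For scale, strong shared regions had median folds of 9.87 and 7.89 and median −log10 p of 43.7 and 20.1 in the same libraries. By rank in their list, members stood at a median of 29.5% from the top in replicate 1 and 24.0% in replicate 2. The coverage at the summit, recovered from the deposited values, was a median of 29 reads in replicate 1 and 18 in replicate 2, with lowest values of 18 and 14. The −log10 p was higher in replicate 1 for 707 members, and the fold was higher there for 492. The members just inside the threshold had a lower −log10 p of 10.005 (chr6:31092684-31093035), 10.01 (chr8:120671759-120672212) and 10.02 (chr2:121370965-121371298), and the closest regions outside it had 9.98, 9.97 and 9.96.

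**Figure D1:**
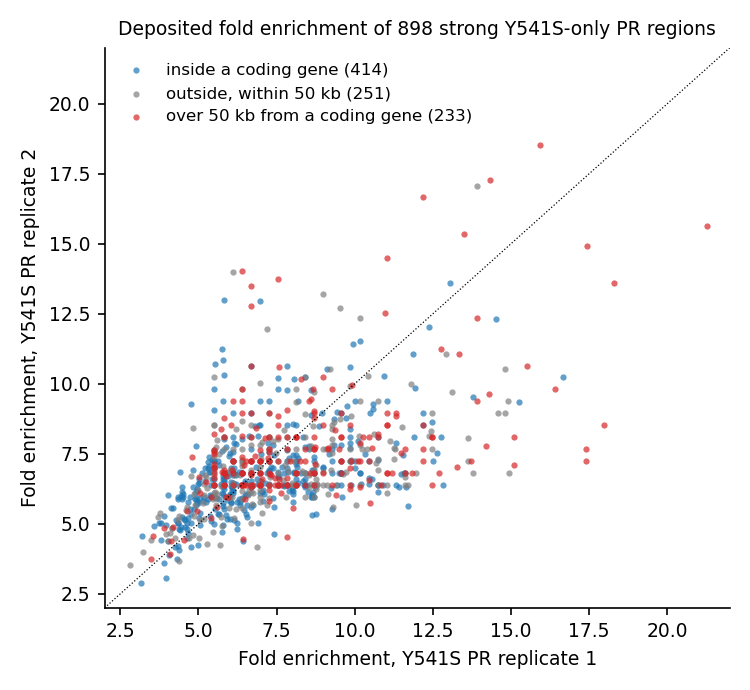
Deposited fold enrichment of each of the 898 members in Y541S PR replicate 1 (x axis) and replicate 2 (y axis), both without unit, coloured by place relative to coding genes; the dotted line marks equal values. Most points lie near the medians of 7.08 and 6.82, and most of the few above a fold of 15 in either library are regions over 50 kb from a coding gene.

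Members were merged from overlapping Y541S peaks, so close summits in the 2 libraries were largely set by the rule. The members' summits were a median of 33 bp apart, and 815 members (90.8%) had summits within 100 bp of each other. Exactly 1 peak from each Y541S list made up 893 of them. The median summit gap was 30 bp at strong shared regions and 62 bp at weaker Y541S-only regions. Strong regions with a peak in 1 WT list had 36 bp. The members were narrow, with widths from 244 through a median of 462 to 1191 bp, against medians of 689 bp for strong shared regions and 395 bp for weaker Y541S-only regions.

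Absence from the WT lists became rarer as the Y541S peak became stronger. Among regions whose lower −log10 p of the 2 Y541S libraries was between 10 and 15, 680 of 10903 were members (6.24%). Between 15 and 20 the count was 168 of 6041 (2.78%), between 20 and 30 it was 36 of 5719 (0.629%), and from 30 up it was 14 of 6587 (0.213%). Because the rule used the same values, this is a description of where the members sit and not a test. The 680 members of the lowest stratum made up most of the 898.

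A region absent from a WT list can still hold signal below the authors' threshold, the lowest listed −log10 p being 2.00. For each member the Y541S summit coverage and expectation were scaled to the background coverage of each WT library and −log10 p was recomputed. All 898 kept a value of at least 2 in both WT libraries, the lowest being 10.2 in WT replicate 1 and 4.03 in WT replicate 2. Enrichment at strong shared regions was lower in WT, with median WT to Y541S ratios from 0.549 to 0.912. With these ratios applied as well, all 898 still reached 2. The lowest values were then 2.13 in WT replicate 1, close to the lowest listed value, and 3.26 in WT replicate 2. Because the rule chose high Y541S values, both outcomes were largely set by the choice of members. The part of depth in the members' absence from the WT lists was not tested by them. When instead every PR library was scaled down to the shallowest one, WT replicate 2, 197 regions met the rule, and 138 of them were among the 898.

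Many members had a WT PR peak in the neighbourhood. The distance to the nearest WT peak ran from 5 bp through a median of 4.71 kb to 1094 kb. It was within 100 bp for 19 members (2.12%), within 500 bp for 90 (10.02%), within 1 kb for 172 (19.2%) and within 5 kb for 469 (52.2%). The 6 closest are named by their closest coding gene, with the distance to the WT peak in brackets. They were those of Grb10 (5 bp), which encodes an adaptor that restrains insulin signalling, and Gucy2c (15 bp), a guanylate cyclase receptor gene. The others were those of Ank3 (22 bp), Bmp2 (26 bp), the gene of a bone morphogenetic protein ligand, Atp10a (34 bp) and Tnrc6c (45 bp). Members of Grb10 and Ank3 lay inside the gene, and those of Gucy2c, Bmp2, Atp10a and Tnrc6c 4.20, 161, 29.3 and 42.5 kb away. The PR folds of these 6 members in Y541S ran from 5.35 at Grb10 to 10.7 at Tnrc6c in replicate 1. In replicate 2 they ran from 6.32 at Bmp2 to 7.58 at Ank3. For such members a short shift in a peak's edge would have merged it with a WT peak.

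The ERα libraries were not used by the rule. Whether they share chromatin with the PR libraries of the same replicate is not stated, and if they do, their values are not independent of the choice of members. The rule also chose members by PR peaks in Y541S and none in WT. The comparison of genotypes below cannot be separated from that choice. An ERα peak overlapped 129 members (14.4%) in WT replicate 1, 78 (8.69%) in WT replicate 2, 269 (30.0%) in Y541S replicate 1 and 221 (24.6%) in Y541S replicate 2. The 2 mutant libraries were above the 2 wild-type ones, without overlap. Over the 69117 autosomal PR regions with a peak in both Y541S PR lists, the same shares were 42.5%, 32.5%, 55.1% and 45.9%, in the same order. The mean share at members was 11.5% ± 4.02 in WT and 27.3% ± 3.78 in Y541S (SD, n = 2 libraries each), a difference of 15.8 percentage points (two-sided exact permutation p = 0.333, the smallest that 2 against 2 libraries allow). Replicate 1 alone gave 15.6 points and replicate 2 alone 15.9. The difference was 13.0 points over the 69117 regions, 13.9 at weaker Y541S-only regions and 11.9 at strong shared regions. All of these classes required a peak in both Y541S PR lists. Over all 188748 merged autosomal PR regions, with a peak in any PR list, the difference was 8.59 points. The shares there were 22.3% and 16.9% in WT and 30.5% and 25.9% in Y541S. Whether these differences differ from one another was not tested. The Y541S ERα lists were longer, and the difference at members was 7.85 points with lists of equal length and 6.74 points with ERα peaks of −log10 p of at least 5.

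The share of members with an ERα peak was below that of strong shared regions in each ERα library. At strong shared regions the shares were 59.7% and 44.3% in WT and 71.2% and 56.6% in Y541S. The members' share was lower by 45.3 and 35.6 points in the WT libraries and by 41.2 and 32.0 points in the Y541S libraries, a mean difference of −38.5 ± 5.91 points (SD, n = 4 libraries; two-sided exact paired permutation p = 0.13, the smallest that 4 libraries allow). With strong shared regions weighted to the members' PR strength it was −37.7 points, and with ERα summits required within 100 bp of the PR summit it was −24.6, or −20.8 with both. Against weaker Y541S-only regions the difference was −3.13 ± 1.60 points and lower in 4 of 4 libraries (exact paired permutation p = 0.13), but it depended on the overlap rule. With ERα summits required within 100 bp, members were higher in 3 libraries, at 9.69% against 9.32% in WT replicate 1, 19.8% against 16.8% in Y541S replicate 1 and 15.6% against 14.7% in Y541S replicate 2, and lower in WT replicate 2, at 4.01% against 6.26%. Regions strong in Y541S with a peak in 1 WT list lay in between, at 35.5%, 28.7%, 49.4% and 43.2%.

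**Figure D2:**
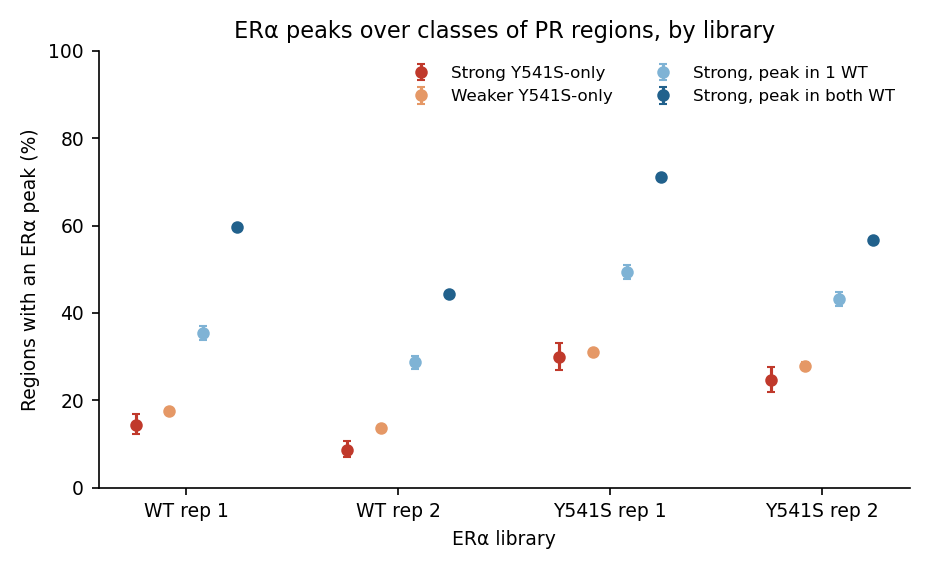
Share of regions overlapped by an ERα peak (y axis, %) in each of the 4 ERα libraries (x axis) for 4 classes of PR regions; bars are 95% Wilson intervals for counting error. The members sit at 8.69 to 30.0%, below strong shared regions in each library, and higher in both Y541S libraries than in both WT libraries.

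Over the 4 ERα libraries jointly, 507 members (56.5%) had no ERα peak in any, beside 31.3% of the 69117 regions with a PR peak in both Y541S lists. ERα was present in both Y541S libraries and absent from both WT libraries at 52 members (5.79%, beside 5.34%), a share near that of all these regions. All 4 libraries had an ERα peak at 38 members (4.23%, beside 22.2%). At least 1 WT library had one at 164 (18.3%, beside 49.4%), and at least 1 Y541S library at 359 (39.98%, beside 63%). At weaker Y541S-only regions the same shares, in this order, were 52.8%, 5.76%, 4.39%, 24.7% and 41.7%. The low ERα shares were thus not particular to the strong members. The reverse pattern, both WT and neither Y541S library, was found at 1 member (0.111%, beside 0.564%), at chr1:60662240-60662759 by Cd28, a T cell costimulator gene that was singled out after its values were seen.

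Where ERα was present, its peaks were of middling rank, with median ranks of 39.8% and 49.8% from the top of the WT lists and 46.8% and 36.1% of the Y541S lists. The median −log10 p of the overlapping ERα peaks was 5.71 and 4.58 in WT and 4.90 and 4.89 in Y541S, and it reached 10 at 18 and 1 members in WT and at 30 and 30 in Y541S. Among members with high ERα values, 3 that were picked after the values were seen lay by Parg, Slc4a4 and Lrrc56. By Parg, which encodes an enzyme that removes poly(ADP-ribose), the ERα fold was 11.3 in WT replicate 1, with no peak in WT replicate 2, and 13.0 and 18.7 in Y541S, while PR had folds of 6.96 and 10.04 in Y541S and no WT peak. Inside Slc4a4, a bicarbonate transporter gene, ERα folds were 13.2 and 4.35 in WT and 6.67 and 6.86 in Y541S, with PR folds of 6.38 and 8.02. Inside Lrrc56 they were 6.30 and 7.61 in WT and 5.80 and 5.96 in Y541S, with PR folds of 4.75 and 5.35. The summit of that member was 135 bases after an annotated start of Lrrc56 and 261 bases upstream of one of Hras. At the members in Slc4a4 and Lrrc56 ERα was listed in both genotypes and PR in Y541S alone.

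The best-ranked members with ERα in all 4 libraries lay by 6 genes. The one by Jun, which encodes an AP-1 transcription factor, was at chr4:95178408-95178991, 127 kb from the gene span, with PR folds of 9.39 and 6.02 and the highest ERα folds of the 6, 6.75 and 5.02 in WT and 9.86 and 7.36 in Y541S. A WT PR peak lay 120 bp from it. Bmf, a pro-apoptotic BCL2-family gene, had its member at chr2:118510363-118510845, 18.1 kb away, with PR folds of 8.31 and 6.90 while its ERα folds were 5.16 and 3.51 in Y541S, beside 3.12 and 3.42 in WT. The member inside Lrp5, a Wnt co-receptor gene, had PR folds of 6.23 and 5.01. Those inside Fmn1, an actin-nucleating formin gene, and inside Ust, a sulfotransferase gene, had PR folds of 9.86 and 7.70 and of 8.87 and 8.48. Pdlim3, a gene of the actin-bound cytoskeleton of muscle, had its member 10.03 kb away with folds of 7.99 and 6.37. ERα folds were 4.81 and 4.78 in WT and 4.90 and 5.77 in Y541S at Fmn1, and 4.13 and 3.47 in WT and 2.74 and 3.68 in Y541S at Ust. These folds are not scaled between libraries, so their order between genotypes was not tested.

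Members were more often far from coding genes than the other classes. With all annotated genes the members' share outside was 43.9%, which was not computed for the other classes. They were outside coding genes in 484 cases (53.9%, 95% Wilson interval 50.6 to 57.1%), beside 46.4% of the 69117 regions, 47.2% of weaker Y541S-only regions and 47.2% of strong shared regions. Those outside lay a median of 45.7 kb from the closest coding gene, against 31.6 kb and 17.9 kb for the outside regions of those classes. Over 50 kb away lay 233 members (25.9%, 23.2 to 28.9%), beside 15% of the 69117, 19.1% of the weaker and 14.0% of the strong shared regions. Within 1 kb of an annotated start site lay 40 of the 856 members on the autosomes other than 18 (4.67%, 3.45 to 6.30%), beside 15.2%, 6.95% and 19.2%, the chromosome being left out because the start-site table holds none there. The median distance to a start site was 29.5 kb for members, 23.3 kb for weaker and 15.98 kb for strong shared regions. Intervals cover counting error over regions, which are not replicates, and these shares were not tested.

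The shares were also compared within strata of PR strength. With a lower −log10 p between 10 and 15, 24.0% of members and 11.5% of strong shared regions lay over 50 kb from a coding gene, and between 15 and 20 the shares were 31.0% and 13.3%. Between 20 and 30 they were 22.2% and 14.2%, with 36 members and a wide interval of 11.7 to 38.1%. From 30 up, 10 of 14 members (71.4%, 45.4 to 88.3%) lay that far away, beside 17.3% of strong shared regions. Start sites were the other way round, with 5.43% of members and 25.6% of strong shared regions within 1 kb between 10 and 15, and 2.44% and 24.5% between 15 and 20. For the 414 members inside genes, the 251 outside but within 50 kb and the 233 beyond, the ERα share was 15.2%, 17.1% and 9.87% in WT replicate 1, and 10.6%, 7.97% and 6.01% in WT replicate 2. In Y541S it was 30.7%, 30.7% and 27.9% in replicate 1, and 28.3%, 21.1% and 21.9% in replicate 2. In each library the members over 50 kb away had a lower ERα share than those inside genes, which was not tested.

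**Figure D3:**
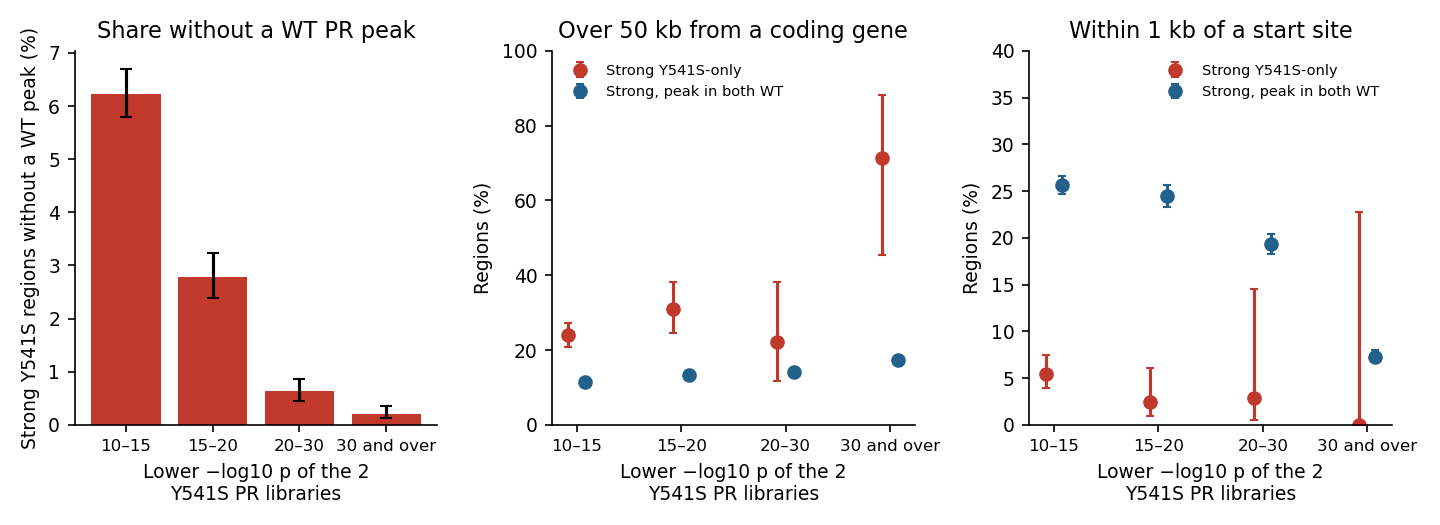
By the lower −log10 p of the 2 Y541S PR libraries (x axis), the share of strong Y541S regions with no WT PR peak (left, %), and the shares of members and of strong shared regions over 50 kb from a coding gene (middle, %) and within 1 kb of a start site (right, %, autosomes other than 18); error bars are 95% Wilson intervals over regions. The left share falls from 6.24% to 0.213%, and members lie above strong shared regions in the middle panel and below them in the right one, with few members in the last stratum.

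The 12 members ranked best by the worse of their 2 ranks show this distance: 9 lay over 50 kb from their closest coding gene. The first, at chr18:83761125-83761587 in the region of Tshz1, a zinc-finger transcription factor gene, had −log10 p of 84.8 and 40.9. The next 3, in the regions of Tfec, Ddx10 and Csmd3, had values of 70.5 and 35.1, 65.9 and 78.6, and 60.5 and 36.1. None of the 4 had an ERα peak in any library, and their nearest WT PR peaks were 19.7, 56.5, 82.9 and 439 kb away. The region by Csmd3 thus stood in the widest stretch without a WT peak among the 12. Inside genes lay the members in Mylk, whose product drives actomyosin contraction, and Usp32, a deubiquitinase gene, at chr11:85059707-85060251 with folds of 16.7 and 10.2. Adamts10, which encodes a metalloprotease of the extracellular matrix, had its member 13.1 kb away at chr17:33510046-33510847, with folds of 14.8 and 10.5 and an ERα peak in Y541S replicate 1. The member by Tle1, a gene of a Groucho-type corepressor, at chr4:72390079-72390537, was the sole one of the 12 with ERα in both Y541S libraries, with PR folds of 14.3 and 17.3 and ERα folds of 3.65 and 4.05. Also among the 12 were those by Foxn3, a forkhead transcription factor gene (chr12:99619151-99619640, 55.8 kb, folds 14.3 and 9.63), and Ptpru, a receptor tyrosine phosphatase gene (chr4:131366577-131367016, 402 kb, folds 13.9 and 12.4). Those by Mgmt, a DNA repair gene, and Ss18, a gene of a chromatin remodelling subunit, had folds of 13.5 and 15.3 and of 15.5 and 10.7. Of the 12, 10 had no ERα peak in any library.

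Members were scattered over the chromosomes. Their share of the strong Y541S regions of an autosome ran from 1.95% on chromosome 11 (39 of 2005) to 4.43% on chromosome 18 (42 of 949), around 3.07% over all autosomes. For 783 members there was no other member within 100 kb, and the remaining 115 formed 56 groups of neighbours within 100 kb of each other. The median gap between neighbouring members was 1431 kb. The largest groups held 3 members.

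**Figure D4:**
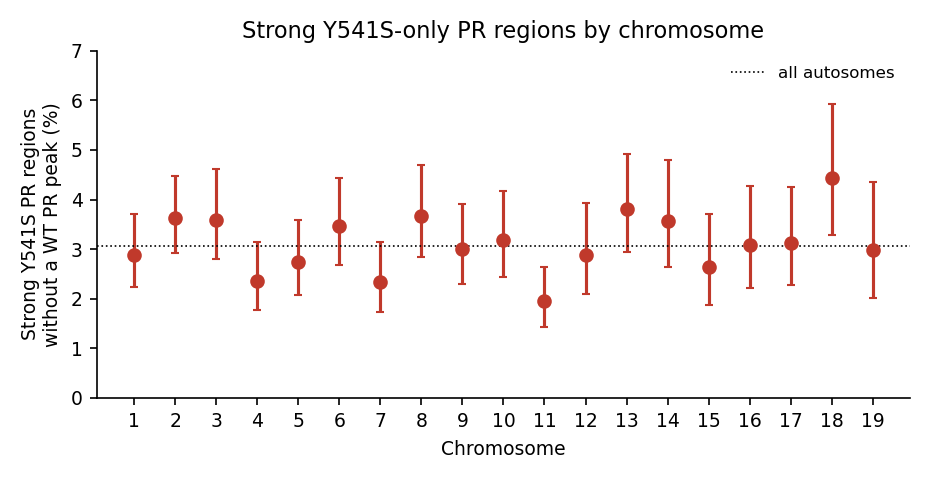
Members as a share of the strong Y541S PR regions of each autosome (y axis, %), with 95% Wilson intervals that cover counting error over regions; the dotted line is the share over all autosomes, 3.07%. The shares run from 1.95% on chromosome 11 to 4.43% on chromosome 18, and most intervals include the line.

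Of 20661 autosomal coding genes, 1212 (5.87%) had a member within 50 kb of the gene's span, 1122 of them with 1, 85 with 2 and 5 with 3. The 5 were Edil3, Fhit, Pcdh7, Slc6a19 and Snx24. In Edil3, an extracellular matrix protein gene 502 kb long, all 3 lay inside the gene, with folds of 9.58 and 8.95, 11.3 and 6.39, and 6.09 and 6.39. Fhit, a gene of 1612 kb at a fragile site, held 3 as well, the strongest with folds of 12.4 and 12.0. Pcdh7, a protocadherin gene of 417 kb, and Snx24, a sorting nexin gene of 147 kb, also held their 3 inside. Slc6a19, an amino acid transporter gene of 21.04 kb, had its 3 outside. The next by symbol order were Ache, Adgrf1 and Alk with 2 each. All but Slc6a19 of the 5 were long genes, and the part of gene length in this was not tested.

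Few genes of the hormone pathways had a member nearby, as was so for all coding genes, and with lists this short the counts were not tested. Of 19 estrogen response genes 1 had one, of 14 paracrine genes of progesterone 0, and of 15 progestin and glucocorticoid response genes 0, beside 5.87% of all coding genes, while strong shared regions were near 18, 12 and 14 of them. The estrogen response gene was Tff1, which encodes a trefoil peptide of secretory epithelia. Its member at chr17:31184247-31184713 lay 19.4 kb away, inside another gene, Tmprss3, with PR folds of 9.57 and 7.80. ERα was listed there in both Y541S libraries, with folds of 2.74 and 2.90, and in neither WT library. Of 15 nuclear receptor coregulator genes 1 had members: Ppargc1a, a coactivator gene of mitochondrial and energy metabolism, had one 7.74 kb away at chr5:51446292-51446878 (folds 10.2 and 9.37) and one inside at chr5:51567760-51568201 (folds 6.09 and 6.82). Of 16 circadian clock genes 1 had one, Dbp, a clock output transcription factor gene. That member lay 49.4 kb from Dbp, with folds of 8.99 and 6.98 and ERα in both Y541S libraries. Its summit was inside another gene, Sult2b1, 11 bases upstream of an annotated start.

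Among cell type lists, the highest shares belonged to the basal and endothelial ones, with 4 and 3 genes near a member, beside 5.87% of all coding genes. No share was tested for these genes. In the basal and myoepithelial list they were 4 of 20: Mylk, Tagln and Actg2, which encode contractile proteins of smooth muscle and myoepithelium, and Krt14, a basal keratin gene. The member in Mylk had folds of 14.5 and 12.3, that by Tagln, 28.3 kb away, 5.05 and 5.91, and that by Actg2, 36.2 kb away, 6.28 and 5.88. ERα was listed in all 4 libraries at the Actg2 member and in none at those of Mylk and Tagln. The summit of the Actg2 member was 35 bases after an annotated start of another gene, Stambp. Krt14 shared its 2 members with Krt19, a luminal keratin gene of the same keratin cluster and the sole one of 14 hormone-sensing luminal genes with a member. They lay 8.04 kb and 22.3 kb from Krt19 and 49.2 and 34.9 kb from Krt14, with folds of 4.25 and 4.49 and of 5.75 and 4.93. In the endothelial list they were 3 of 14: Vwf, which encodes von Willebrand factor (inside, folds 8.20 and 6.46), Erg, an ETS transcription factor gene (inside, 12.5 and 7.24), and Emcn, a sialomucin gene (47.6 kb, 3.49 and 4.42). Erg had 0 strong shared regions within 50 kb, whereas Vwf had 7. The luminal progenitor list had Kit, a receptor tyrosine kinase gene, 42.9 kb from a member with folds of 7.25 and 5.92, 1 of 15 genes. The adipocyte, fibroblast and immune lists had 0 of 17, 0 of 14 and 0 of 14. Over all 12 lists 12 of 177 genes had a member within 50 kb (6.78%), near the 5.87% of all coding genes. At 10 kb the count was 5 (2.82%, beside 2.62%) and at 100 kb 17 (9.605%, beside 9.598%).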

How the data were processed

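Peak lists of 8 ChIP-seq libraries were used, ERα and PR in WT and Y541S glands with 2 biological replicates each. Minced glands were fixed and their chromatin (30 µg, with 4 µg of antibody) precipitated, per the labels' protocols. The authors deposited 1 list per library on mm10, per the submitters' processing notes, with a whole-number score, a fold enrichment (a ratio), −log10 p and −log10 q per peak. The score was not used. The aligner, the peak caller and any input control are not given in the sources used here. Fold and −log10 p were not normalised between libraries, so peaks were ranked and filtered within a list, and values of several lists are set side by side as a description only.

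Regions were built and classed in Python 3.11.15 with numpy 2.4.6, pandas 2.3.3 and scipy 1.17.1. Summit coverage was recovered as the whole number that gives both deposited values (tolerance 0.0001 on −log10 p), and the 0.001 quantile of the local expectation is the background coverage. ERα shares were compared with two-sided exact permutation tests over libraries, whose p-values rest on the spread between these libraries; whether both receptors were precipitated from one chromatin is not stated. The scripts were tested on simulated data. Genes came from RefSeq tables of GRCm38.p6 (20661 autosomal coding genes), and all 180 genes of the 12 lists were matched, 177 of them autosomal.

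The members, the gene lists and the motifs were chosen with earlier results of these data known, and the half-site AGAACA was added after the files were read. Named genes are those closest to the 12 best-ranked members, the 8 with most members within 50 kb, list genes with a member within 50 kb, and those closest to the 6 best-ranked members with ERα in all 4 libraries and to the 6 members nearest a WT PR peak. Genes of promoters printed and others said to be picked later are outside this rule. Alternatives were other thresholds, list lengths, depth scaling, overlap rules, distances, a replicate block and leaving out each library.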

Additional observations from a re-analysis of the deposited data

Results flagged for a closer look

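Chromosome X was left out of the members by the rule and of every comparison above, so its regions are data that the report did not use. Of 439 regions on chromosome X that were strong in both Y541S PR libraries, 31 (7.06%, 95% Wilson interval 5.02 to 9.85%) had no PR peak in either WT library, beside 3.07% on the autosomes. The sex chromosome content of the libraries was not tested.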

How the results depend on the processing

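The number of members depended on the settings, as a count made with thresholds does. It was 898 as reported, 6501 with a −log10 p of at least 5 and 50 with at least 20, 197 with coverage scaled to the shallowest PR library, 14947 within replicate 1 alone and 3157 within replicate 2 alone. Leaving out 1 PR library gave 1762 to 7149 (2057 without WT replicate 1, 3255 without WT replicate 2, 1762 without Y541S replicate 1 and 7149 without Y541S replicate 2), since the rule then asks less of that genotype. It was 808 with no WT peak allowed within 500 bp, 1099 with −log10 q of at least 1.3 and 969 with lists of equal length. The Y541S minus WT difference in ERα share kept its direction in all 10 other settings, at 6.74 to 18.8 points, the lowest with ERα peaks of −log10 p of at least 5, and at 12.9 to 18.6 points without 1 library. With the replicate block it was also 15.8 points (exact permutation p = 0.5, the smallest of 4 arrangements). Replicate 1 exceeded replicate 2 by 5.68 points in WT and 5.35 in Y541S, but 2 numbers shared by the labels do not show pairing. The difference between members and strong shared regions kept its direction, at −20.8 points with weighting by strength and summits within 100 bp, and at −36.3 to −40.7 without 1 library. The share outside genes, 53.9%, became 43.9% with all annotated genes, 64.0% at a −log10 p of at least 20, 60.9% with scaled coverage and 49.7 to 52.0% without 1 PR library. The list genes with a member numbered 12 within 50 kb, 5 within 10 kb and 17 within 100 kb. Settings with redefined members or a joint change of strength and overlap were added after seeing the data. The planned motif shares around member summits were not run, because no genome sequence of the build was used here. The PR libraries differed in depth, with background coverage from 0.927 in WT replicate 2 to 2.68 in WT replicate 1.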
